A study of Danio rerio with 24 samples.

Results

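Eyes of zebrafish exposed to mebendazole (MBZ) until 72 h post-fertilization (hpf) were compared with eyes exposed to MBZ until 60 hpf, to ask which parts of eye development went on between 12 h and 24 h of exposure. The members are the 4 arrays labelled MBZ with a 24 h exposure and the 4 labelled MBZ with a 12 h exposure, 8 of the 24 arrays of the series. MBZ-exposed fish of 72 hpf had received 0.3 μM MBZ for 24 h, and those of 60 hpf had received the same concentration for 12 h, in both cases starting at 48 hpf. The 8 arrays of fish given BBC at 0.3 μM for the same times served as the reference for the change with age. BBC, a butyl benzoate, keeps the methyl carbamate and the benzimidazole of MBZ and bears a butyl ester on the outer benzene ring. MBZ arrays of 84 hpf (36 h of exposure) entered the fit, and their levels are given as a description. All fish were of the AB line, every group received MBZ or BBC, and no array of unexposed fish was used. Each array held RNA from a pool of whole eyes of many fish, collected by surgical extraction, and the labels do not say whether the 4 pools of a group came from separate clutches, so the p values measure the spread between these pools.

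MBZ is an anthelmintic benzimidazole that binds tubulin and hinders the assembly of microtubules, which form the mitotic spindle and carry cargo along axons. In the zebrafish eye, retinal progenitors leave the cell cycle and become ganglion cells, amacrine and horizontal cells, bipolar cells, photoreceptors and Müller glia, which then build synapses in the plexiform layers. Photoreceptors mature after they are born, when they make opsins, the enzymes of phototransduction and the membrane discs of the outer segment, while the lens fills with crystallins and the pigment epithelium takes up the recycling of the visual pigment.

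Each level is a log2 value scaled to the signal at the 75th percentile of its array, where the level is 0, and levels of different probes are not set against each other. A change is the mean level at 72 hpf minus the mean level at 60 hpf, with its standard error (SE), and a probe was called at a limma adjusted p under 0.05. The 75th percentile itself was between 437 and 663 intensity units on the 72 hpf arrays and between 914 and 1433 on the 60 hpf arrays, while 71.3% to 74.4% of probes at 72 hpf and 67.6% to 70.9% at 60 hpf were well above background. On the MBZ arrays of 84 hpf the 75th percentile was between 880 and 1384, so the 72 hpf arrays were the dimmest of the MBZ arrays. No probe spot was saturated. Arrays of 72 hpf correlated with each other at r = 0.989 to 0.994 and those of 60 hpf at 0.991 to 0.994, and arrays of different age at 0.933 to 0.954, across probes that are not independent. The mean MBZ profile of 60 hpf was closer to that of 84 hpf (r = 0.957) than to that of 72 hpf (0.948). The profiles thus did not follow a steady course with age, and the cause was not tested. Scan day follows the exposure time, so that age and scan day cannot be told apart. The ages lie 12 h apart in a daily cycle of light and dark, so that age and time of day cannot be told apart either. The defining genes of the eye were present on all 8 arrays, with levels of the photoreceptor factor crx between 6.12 and 6.68 at 72 hpf and between 5.38 and 5.60 at 60 hpf.

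Most of the measured transcriptome differed between the ages. Of 31504 probes tested, 22936 were called (72.8%), with 13508 higher at 72 hpf (42.9%) and 9428 lower (29.9%). A change of at least 2-fold was called higher for 6653 probes (21.1%) and lower for 3529 (11.2%). All 4 arrays of 72 hpf lay on 1 side of all 4 arrays of 60 hpf for 68.4% of the probes, above them for 40.4% and below them for 28%. The median change over all probes was 0.19 on the log2 scale and the median SE was 0.14. Among 9738 named genes, each taken at its brightest probe, 37.8% were called higher and 33% lower, with a median change of 0.064. These shares are the background of the counts over gene lists.

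The direction of the whole set depended on brightness and scaling. In the dimmest eighth of the probes the median change was 1.08, with 60.2% called higher and 9.95% lower, and in the second eighth it was 0.59. In each of the 5 brightest eighths the median lay between -0.0046 and 0.075, with 35.3% to 38.6% called higher and 34.9% to 39.4% lower. The median over all probes was 0.03 after quantile normalization, -0.07 when arrays were centred on the median, and 0 in the values the authors normalized. Of the probes tested, 1116 had a positive change and were well above background on no array of 60 hpf but on at least 1 of 72 hpf. Another 184 had a negative change and were well above background on no array of 72 hpf but on at least 1 of 60 hpf.

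**Figure D1:**
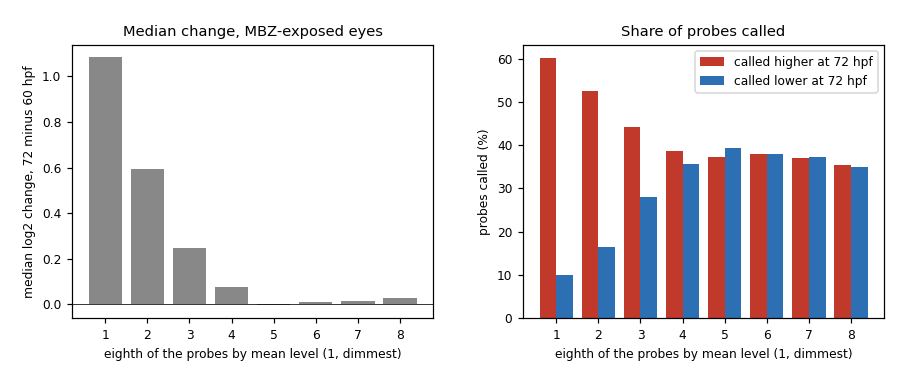
Left, the median log2 change (72 hpf minus 60 hpf) in MBZ-exposed eyes for each eighth of the probes ordered by mean level. Right, the share of probes called higher and lower in each eighth, in percent. The dimmest eighth has a median of 1.08 and the 5 brightest lie near 0.

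The change with age under MBZ was close to that under BBC. BBC-exposed eyes had 23159 probes called between the ages (73.5%), 13804 higher (43.8%) and 9355 lower (29.7%). Both compounds gave a call in the same direction for 12655 probes higher and 8689 lower, and 1 probe had opposite calls. The changes correlated at r = 0.97 across the tested probes, with a slope of MBZ on BBC of 0.966. The sign was the same under both compounds for 94.4% of all tested probes and for 99.8% of those called under MBZ. No array is shared by these changes, although slides and scan days are. The test of the difference itself, the change under MBZ minus the change under BBC, called 0 probes at an adjusted p under 0.05 or under 0.20, with 669 probes (2.12%) at an unadjusted p under 0.05. With no difference at any probe, a share of about 0.05 would lie there by chance. The observed share is below that, so this test may be conservative, and 0 calls do not show that the compounds are alike. The difference had a median SE of 0.20, which corresponds to a 95% interval of 0.42 on either side. For 17275 probes (54.8%) the 95% interval lay within 1.5-fold in both directions, and for 26104 (82.9%) within 2-fold. For the other probes the interval reached past 2-fold, so that a larger difference between the compounds was not excluded.

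**Figure D2:**
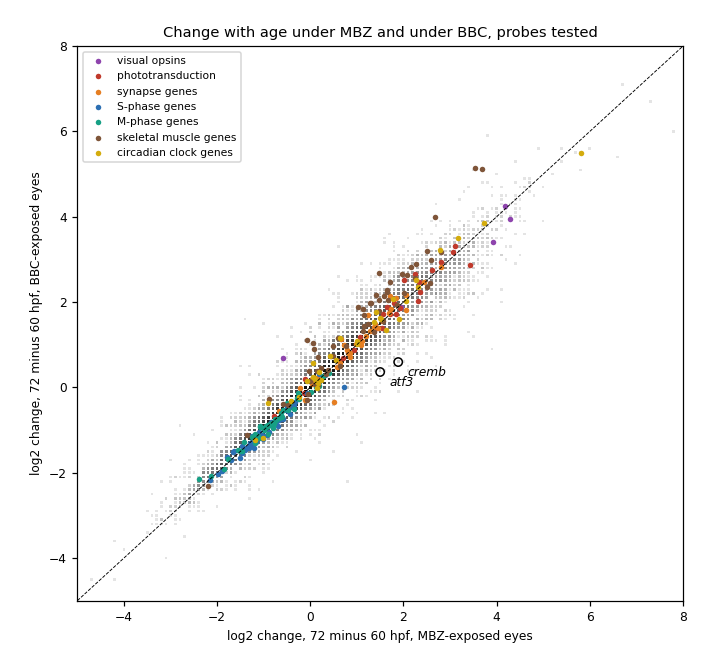
Change of each probe between the ages in MBZ-exposed eyes (horizontal) and in BBC-exposed eyes (vertical), both as log2 at 72 hpf minus 60 hpf. Grey squares are tested probes, darker where there are more, and a few with the largest falls lie outside the axes. Colours are genes of 7 lists, and the dashed line is equality. Opsin and phototransduction genes lie at the upper right, S-phase and M-phase genes at the lower left, and the circled cremb and atf3 below the line.

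Visual opsins and phototransduction genes had the highest medians of the 30 gene lists. Of 9 visual opsins listed, 6 were on the array and 5 tested, and 4 of these were called higher with none lower. Their median change was 3.92, but 2.03 in the authors' values and 1.74 with the normexp background correction, with the same counts of calls. The size of the opsin rises thus depends on the processing. In bulk eye RNA a larger number of photoreceptors and more RNA in each photoreceptor cannot be told apart. The green-cone opsin opn1mw1 had levels of -0.97, -1.16, -0.72 and -0.71 at 72 hpf, against -5.18, -4.90, -5.45 and -5.15 at 60 hpf. Each 72 hpf array stood above each 60 hpf array, and the change was 4.28 (SE 0.38), 19.4-fold, with an adjusted p of 3.7e-09. Its change under BBC was 3.95, and the difference of 0.33 had a 95% interval of -0.81 to 1.46.

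The blue-cone opsin opn1sw2 had levels of 0.15, 0.31, 0.82 and 0.71 at 72 hpf, against -3.16, -3.47, -3.44 and -3.64 at 60 hpf. The groups were far apart, with a 15.2-fold change (log2 3.92, SE 0.39, adjusted p = 1.6e-08). The red-cone opsin opn1lw2 was already above the 75th percentile at 60 hpf. Its levels were 2.49, 2.98, 3.25 and 3.04 at 72 hpf and 0.89, 1.06, 1.03 and 0.98 at 60 hpf, a 3.86-fold rise (adjusted p = 9.2e-06). A second green-cone opsin, opn1mw2, was well above background on all 4 arrays at 72 hpf and on 0 of 4 at 60 hpf. At this brightest probe its change is a lower bound of at least 15.6-fold, while a dimmer probe had a log2 change of 2.78 and was also called. Here and below, such a bound sets the mean of the brighter age against the lowest signal that was well above background on each array of the dimmer age, or the probe's own signal where that is higher. Probes given a bound were tested because other groups were bright, not the MBZ arrays of the dimmer age, so their calls are no independent support. The fifth opsin, opn1mw3, was well above background on 0 of 4 arrays at 72 hpf and 1 of 4 at 60 hpf, and no fold is given. Opsins of 1 class are close in sequence, and their probes may share signal.

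Among 26 tested phototransduction genes, of 28 on the array, 22 were called higher and 1 lower. Their median change was 1.75, against 0.064 over named genes and 0.19 over all probes. With the normexp correction it was 1.15, against 0.015 over all probes. The cone transducin gnat2, which passes the signal from the opsin to the phosphodiesterase, had levels of 0.91, 0.58, 1.24 and 0.99 at 72 hpf, against -1.06, -1.08, -0.87 and -0.96 at 60 hpf. The ages did not overlap, and the rise was 3.79-fold (log2 1.92, SE 0.26, adjusted p = 1.4e-06) at its brightest probe, while its second probe had 0.57 and was not called. The cone phosphodiesterase subunits pde6hb and pde6c rose 8.32-fold and 2.91-fold, the cone arrestins arr3b and arr3a, which quench activated opsin, 6.96-fold and 3.47-fold, and the transducin beta subunit gnb3b 4.94-fold. The rod arrestin saga rose 5.01-fold, with adjusted p values for these genes of 8.9e-06 or less at their brightest probes. Second probes of arr3a (0.53) and pde6c (0.83) were not called, and that of saga was called higher at 0.71. The guanylate cyclase activator guca1b and the opsin kinase grk1a were well above background at 72 hpf only, with rises of at least 5.69-fold and at least 2.43-fold, the call of grk1a being lost in the authors' values.

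Not every member rose. guca1g was the gene called lower, with levels of -4.04, -4.36, -3.69 and -4.02 at 72 hpf against -3.30, -3.02, -3.10 and -3.26 at 60 hpf (change -0.86, adjusted p = 0.0017). The rod transducin gnat1 had a change of -0.14 (SE 0.23, adjusted p = 0.58) at its brightest probe, and a dimmer probe of the same gene was called lower at -1.54, so the probes disagree. The opsin kinase grk1b had a change of -0.78 (adjusted p = 0.065).

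Regulators and structural genes of photoreceptors moved with them. Of 21 tested genes of this list, 18 were called higher and 0 lower, with a median change of 1.1. rs1a, which encodes retinoschisin, an adhesion protein that photoreceptors secrete, had levels of 3.99, 4.81, 4.75 and 4.72 at 72 hpf, against 0.97, 0.81, 0.42 and 0.39 at 60 hpf. This rise of 3.92 on the log2 scale (SE 0.35, adjusted p = 3.9e-09) was among the largest of any named gene. The disc rim proteins prph2a and rom1a rose 12.1-fold and 6.30-fold, and prom1b, which acts in disc formation, 7.46-fold. All 4 prph2a probes were called higher, with log2 changes from 1.35 to 3.60, the largest at the brightest probe. The transcription factors moved less: crx rose 1.97-fold, neurod1 2.36-fold, six7, which is needed for green-cone opsins in zebrafish, 2.14-fold, otx5 1.57-fold and the thyroid hormone receptor thrb, needed for red cones, 1.54-fold.

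The pineal opsin exorh went the other way. Its levels were -2.86, -2.97, -2.88 and -2.89 at 72 hpf, against 0.04, -0.04, 0.18 and -0.07 at 60 hpf, a change of -2.93 (SE 0.13, adjusted p = 2.4e-13). The 4 arrays of each age were tightly grouped. The mean level at 84 hpf was -1.32, between those of the younger ages.

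**Figure D3:**
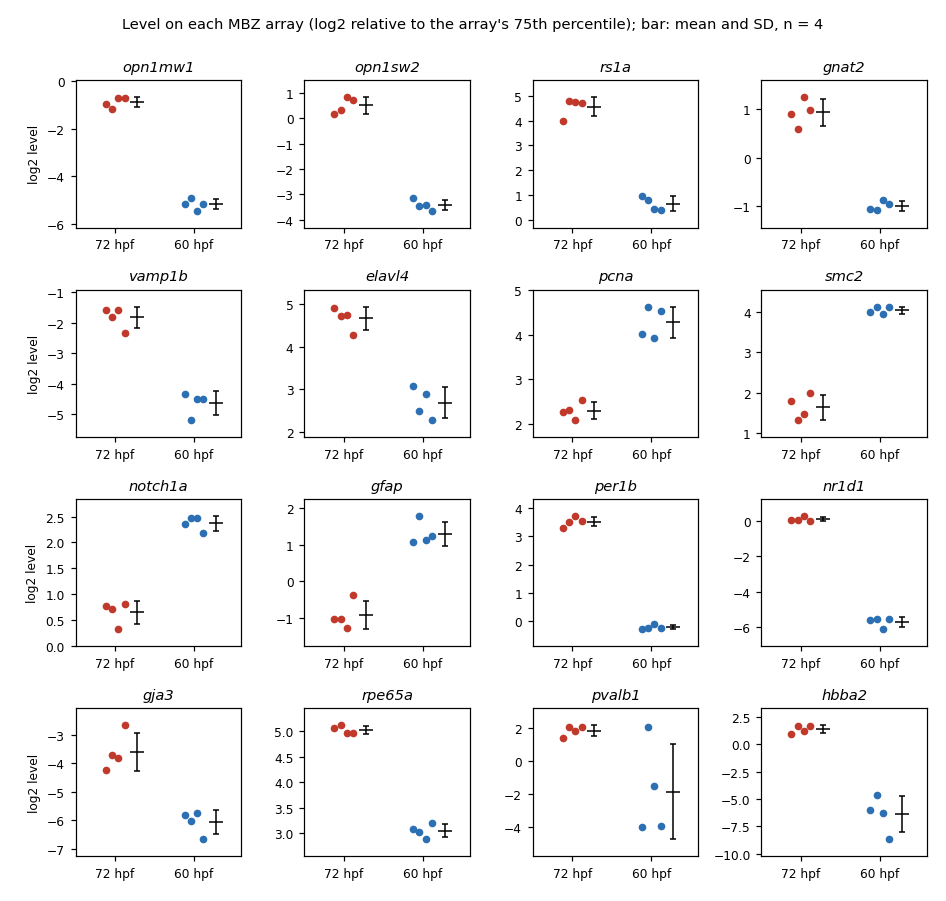
Levels of 16 genes on each MBZ array, as log2 scaled to the array's 75th percentile, with 72 hpf left and 60 hpf right, and bars for mean and SD of 4 arrays. opn1mw1 lies between -1.16 and -0.71 at 72 hpf and between -5.45 and -4.90 at 60 hpf, pcna is lower at 72 hpf on every array, and in pvalb1 replicate 2 of 60 hpf stands among the 72 hpf arrays.

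Genes of the cell cycle fell as a group. Of 51 tested S-phase genes 45 were called lower and 2 higher, with a median change of -1.04, and of 52 tested M-phase genes 43 were called lower and 1 higher, with a median of -0.91. Under BBC the same lists had 45 lower and 1 higher, and 43 lower and 1 higher. The signed change was lower under MBZ than under BBC for 10 of 51 S-phase genes and 28 of 52 M-phase genes. The median differences were 0.069 and -0.010, and no gene was called for the difference. The replication clamp pcna had levels of 2.28, 2.31, 2.09 and 2.54 at 72 hpf, against 4.01, 4.62, 3.93 and 4.54 at 60 hpf. The ages were well apart, and the change was -1.97 (SE 0.18, adjusted p = 4.5e-09), with a difference from BBC of 0.070 and a 95% interval of -0.46 to 0.60.

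The helicase subunits mcm2 and mcm5, which open DNA for replication, had changes of -1.40 and -1.27, the nucleotide enzyme tyms -1.26, the maintenance methyltransferase dnmt1 -1.66, the cyclin ccne2, which drives entry into S phase, -1.70, and the replisome protein wdhd1 -2.16, all with adjusted p values of 3.1e-07 or less. The S-phase genes called higher were the licensing factor cdt1 (0.72, adjusted p = 0.0078) and the polymerase subunit pold3 (0.32, adjusted p = 0.010). cdt1 was not called under any of 4 other scalings and corrections, and the second probe of pold3 changed by -1.17.

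The condensin gene smc2, whose protein compacts chromosomes in mitosis, had levels of 1.79, 1.32, 1.46 and 2.0 at 72 hpf, against 3.99, 4.11, 3.93 and 4.11 at 60 hpf. No array crossed between the ages, and the change of -2.40 (SE 0.18, adjusted p = 2.2e-10) was the largest fall of the list at a brightest probe. All 5 smc2 probes were called lower, the smallest change being -0.50. Its partner smc4 had a change of -2.14. The mitotic kinases aurka and plk1 had changes of -1.10 and -0.92, the spindle motor kif11 -0.95, and cyclin ccnb1 -1.01. The kinase cdk1 fell less, with a change of -0.35 (adjusted p = 0.029) and overlapping arrays, and the call was lost in 6 of the alternative settings. birc5a was the M-phase gene called higher (0.40, adjusted p = 0.013), and its second probe had a change of -0.34.

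Progenitor genes split. Of 44 tested members, 16 were called higher (36.4%) and 14 lower (31.8%), against 37.8% and 33% of named genes. The median was 0.041, and 11 were higher and 19 lower when arrays were centred on the median. The lower ones included genes of neurogenesis. The receptor notch1a, which holds cells in the progenitor state, had levels of 0.76, 0.71, 0.32 and 0.81 at 72 hpf, against 2.35, 2.47, 2.48 and 2.17 at 60 hpf, a change of -1.72 (SE 0.19, adjusted p = 8.6e-08). The proneural factor ascl1a, the Notch ligand dlb, insm1b, which acts in cells leaving the cycle, and neurog1 had changes of -1.26, -1.15, -0.92 and -0.77. Higher were pax6a (1.03) and rx3 (0.78), and the dominant-negative helix-loop-helix factor id1 (1.01), each with adjusted p values of 6.8e-05 or less. Of the other pax6a probes, 1 had 0.66 and was called and 1 had 0.063 and was not. notch1b rose by 1.34 at its brightest probe (adjusted p = 1.0e-05), while another of its 3 probes had -0.13. The cell cycle inhibitor cdkn1bb, on the list of lens genes, had levels of 5.07, 5.44, 5.03 and 4.87 at 72 hpf, against 3.33, 3.45, 3.60 and 2.68 at 60 hpf, a 3.57-fold rise (adjusted p = 3.2e-09).

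Genes of inner retinal neurons and of synapses mostly rose. For the 37 tested synapse genes, 27 were called higher and 1 lower, with a median of 0.99. The synaptic vesicle protein gene sv2ba had levels of -1.19, -0.88, -0.73 and -1.15 at 72 hpf, against -4.73, -4.90, -4.66 and -4.86 at 60 hpf, a 13.9-fold rise (log2 3.80, SE 0.31, adjusted p = 1.1e-09). The vesicle fusion gene vamp1b had -1.59, -1.82, -1.56 and -2.33 at 72 hpf, against -4.35, -5.19, -4.50 and -4.49 at 60 hpf, a 7.0-fold rise. Neither gene had overlapping arrays. The kinase camk2a rose 5.40-fold, the vesicular glutamate transporter slc17a6b 4.14-fold, and the glutamate receptor subunit gria2b 2.93-fold, with adjusted p values of 4.0e-04 or less. Of the other gria2b probes, 1 had 0.55 and was called and 1 had 0.22 and was not. The SNARE gene snap25b rose 2.44-fold at its brightest probe, but its second probe had a change of -0.40. The glycine receptor subunit glrbb was the gene called lower (-0.67, adjusted p = 0.00090).

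Amacrine and horizontal cell genes had 21 of 29 called higher and 1 lower, with a median of 0.68. The calcium buffer pvalb6 had levels of 0.59, 0.74, 0.74 and 0.57 at 72 hpf, against -2.28, -3.03, -2.19 and -2.33 at 60 hpf, an 8.67-fold rise (adjusted p = 1.3e-10). prox1a, a factor of horizontal cells, rose 2.84-fold, the inhibitory transmitter transporter slc32a1 2.06-fold, and the calcium buffer calb2b 3.05-fold. barhl1a was called lower (-0.83). Among 13 tested bipolar cell genes, 9 were called higher (69.2%) and 2 lower (15.4%), against 37.8% and 33% of named genes. Their median was 0.94, and 0.44 with the normexp correction. When arrays were centred on the median, 6 were higher and 3 lower. The bipolar factor vsx1 had levels of 4.39, 4.90, 4.77 and 5.03 at 72 hpf, against 3.42, 3.11, 3.38 and 3.50 at 60 hpf, a 2.67-fold rise. nyx, whose protein sits at the bipolar dendrite tip, was well above background on 4 of 4 arrays at 72 hpf and on 0 of 4 at 60 hpf, a rise of at least 7.60-fold, and the glutamate receptor grm6b rose 2.23-fold, its second probe (0.87) not being called. fezf2 was called lower (-0.68).

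Ganglion cell genes were mixed. Of 31 tested, 14 were called higher (45.2%) and 5 lower (16.1%), against 37.8% and 33% of named genes, with a median of 0.33. When arrays were centred on the median the list had 11 higher and 10 lower, so that the balance of this list depends on the scaling. The neuronal RNA-binding protein gene elavl4 had levels of 4.92, 4.72, 4.75 and 4.26 at 72 hpf, against 3.09, 2.49, 2.88 and 2.28 at 60 hpf, a 3.94-fold rise (adjusted p = 1.0e-08), at its brightest probe, while its other probes had changes of -0.03 and 0.18 and were not called. rbpms2a, a marker of ganglion cells, rose 3.85-fold, the axon guidance receptor robo2 2.87-fold, and the adhesion gene l1camb 3.65-fold. The neurofilament genes neflb and inab were called lower, at -1.03 and -0.61, and klf6a, linked in zebrafish to axon regrowth, at -0.94. The ganglion cell factor pou4f3 had -3.17, -3.04, -2.77 and -2.72 at 72 hpf, against -3.10, -3.87, -3.51 and -3.18 at 60 hpf, and a change of 0.49 (SE 0.32, adjusted p = 0.17). Its change under BBC was 1.90, and the difference was -1.41, with a 95% interval of -2.35 to -0.47 (unadjusted p = 0.0053, not called after adjustment). Of the 31 genes, 3 including pou4f3 were at an unadjusted p under 0.05 in the difference, against 156 of 9738 named genes, and none was called. The macrophage and microglia list also had 3, of 27 genes. pou4f3 was picked with its values known.

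**Figure D4:**
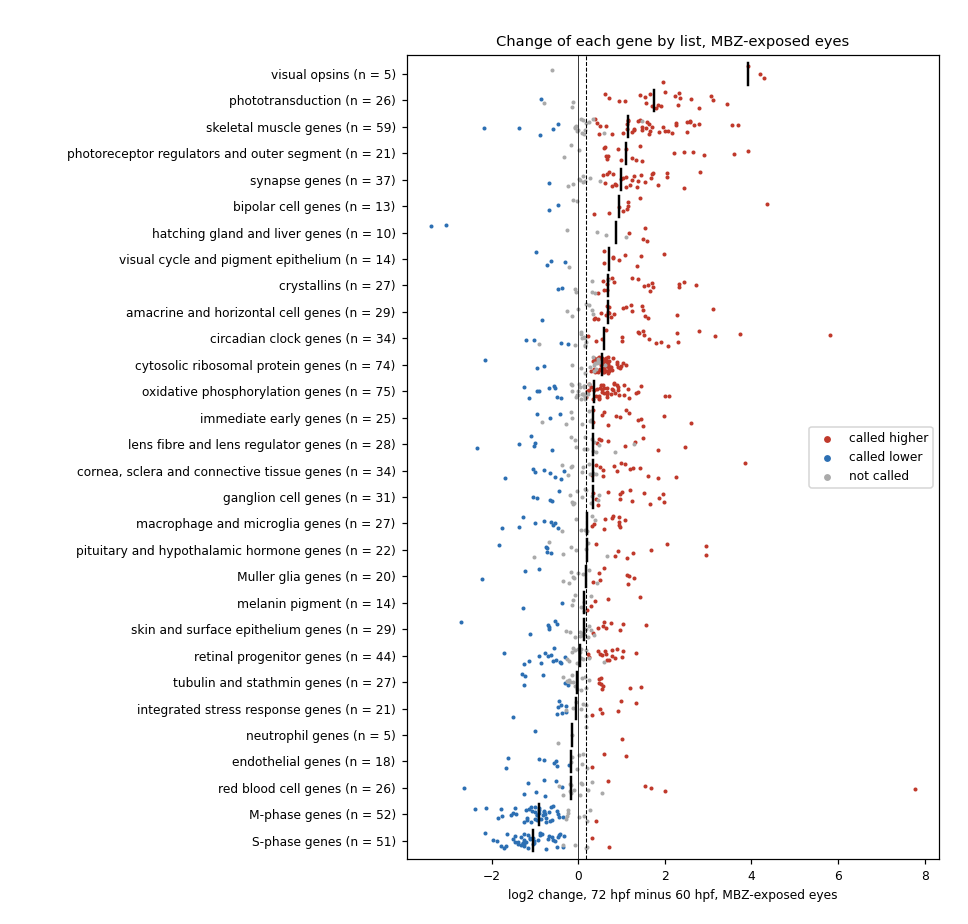
Change of each tested gene (log2, 72 hpf minus 60 hpf) in MBZ-exposed eyes for 30 gene lists, at the brightest probe. Red points were called higher, blue lower and grey were not called, black bars are list medians, and the dashed line is the median of all probes, 0.19. Opsins and phototransduction lie to the right and S-phase and M-phase genes to the left.

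Müller glia genes moved both ways, with 8 of 20 called higher (40%) and 3 lower (15%), against 37.8% and 33% of named genes. Their median of 0.18 was near the 0.19 over all probes, and 5 were higher and 8 lower when arrays were centred on the median. Glutamine synthetase glula, which clears transmitter in mature glia, had levels of 4.60, 4.63, 4.89 and 4.66 at 72 hpf, against 3.31, 3.37, 3.56 and 3.43 at 60 hpf, a 2.42-fold rise. The lipid carrier apoeb rose 2.21-fold. The intermediate filament gene gfap had -1.04, -1.02, -1.28 and -0.37 at 72 hpf, against 1.07, 1.78, 1.11 and 1.23 at 60 hpf, a change of -2.22 (SE 0.23, adjusted p = 2.2e-08), and the glial factor sox9b a change of -0.91.

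Visual cycle and pigment epithelium genes had 9 of 14 called higher and 4 lower, with a median of 0.70. The isomerase rpe65a, which regenerates the chromophore of the opsins, had levels of 5.06, 5.11, 4.97 and 4.96 at 72 hpf, against 3.09, 3.03, 2.89 and 3.2 at 60 hpf, a 3.93-fold rise (adjusted p = 1.3e-08). The retinol carrier rbp4 rose 2.58-fold and rlbp1b, which carries retinal, 2.11-fold, although its second probe had -0.10. The retinol dehydrogenase rdh5 and peropsin rrh were called lower, at -0.64 and -0.98. Melanin pigment genes were more even, with 5 of 14 higher (35.7%) and 2 lower (14.3%), against 37.8% and 33% of named genes. When arrays were centred on the median, 2 were higher and 5 lower. Tyrosinase tyr, the first enzyme of melanin synthesis, rose 2.68-fold, while pmelb was called lower (-0.38) and so was mc1r, which was well above background on 1 of 4 arrays at 72 hpf and 4 of 4 at 60 hpf, a call lost in the authors' values.

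In the lens, crystallins had 19 of 27 tested genes called higher and 2 lower, with a median of 0.70, against 12 higher and 2 lower under BBC with a median of 0.51. This count fell to 11 higher and 2 lower after quantile normalization and in the authors' values, and crystallin genes of 1 family are so alike that probes may share signal. cryba2b had levels of 6.86, 7.45, 7.28 and 7.0 at 72 hpf, against 5.31, 5.42, 5.85 and 5.37 at 60 hpf, a 3.16-fold rise (adjusted p = 3.9e-08). crygm2d11 rose 6.61-fold, with levels of 0.18, 1.18, 0.65 and -0.28 at 72 hpf against -2.79, -2.02, -1.18 and -3.17 at 60 hpf. crybb1l3 was called lower (-0.46, adjusted p = 0.040), a call lost in 7 alternative settings. Other lens genes had 9 of 28 called higher (32.1%) and 6 lower (21.4%), against 37.8% and 33% of named genes, and 7 and 8 when arrays were centred on the median. The gap junction gene gja3 rose 5.53-fold and the fibre membrane protein lim2.5 2.48-fold, while the gap junction gene gja8b (-1.02) and the receptor epha2a (-2.34) were called lower. epha2a had -1.17, -1.68, -1.61 and -1.06 at 72 hpf, against 0.66, 1.25, 0.90 and 1.03 at 60 hpf, with no overlap.

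Connective tissue genes of cornea and sclera had 16 of 34 called higher (47.1%) and 8 lower (23.5%), against 37.8% and 33% of named genes. When arrays were centred on the median, 13 were higher and 12 lower. ucmab, known from cartilage, had levels of 0.32, 0.34, 0.73 and 0.26 at 72 hpf, against -3.57, -3.40, -3.20 and -3.57 at 60 hpf, a 14.4-fold rise (adjusted p = 8.6e-10). The proteoglycans bgnb and lum rose 4.78-fold and 2.28-fold and the cartilage matrix gene matn1 2.67-fold. The corneal proteoglycan kera had a change of -1.04 and the retinoic acid enzyme aldh1a3 -1.69. Endothelial genes had 3 of 18 higher (16.7%) and 8 lower (44.4%), against the same shares of named genes, with a median of -0.16. The tight junction gene cldn5a had -0.84, -1.09, -1.23 and -1.0 at 72 hpf, against 0.61, 0.91, 0.41 and 0.61 at 60 hpf, a change of -1.68. The vessel receptor kdrl (-0.79) and the lipid transporter mfsd2aa (-1.63) were lower, and the glucose transporter slc2a1a rose 2.13-fold, a call lost in the authors' values and with the normexp correction.

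Of 34 tested clock genes, 20 were called higher and 4 lower, with a median of 0.59. The clock repressor nr1d1 had levels of 0.08, 0.04, 0.28 and 0.02 at 72 hpf, against -5.62, -5.55, -6.13 and -5.54 at 60 hpf, a 56.3-fold rise (log2 5.82, SE 0.37, adjusted p = 2.5e-11). Its second, dimmer probe had a log2 change of 3.19 and was also called higher. The period gene per1b, another repressor, had 3.31, 3.50, 3.72 and 3.55 at 72 hpf, against -0.27, -0.27, -0.10 and -0.25 at 60 hpf, a 13.4-fold rise with the smallest adjusted p of all probes (7.3e-16). Neither gene had arrays that came near each other between the ages, and their differences from the BBC change had 95% intervals of -0.77 to 1.41 for nr1d1 and -0.42 to 0.18 for per1b.

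The repressor nfil3-6 rose 8.95-fold, the light-responsive flavoprotein gene cry-dash 4.95-fold, per3 4.84-fold, aanat1, which makes melatonin's precursor in the retina, 4.18-fold, clocka 3.45-fold, per1a 2.88-fold and tefa, which responds to light in zebrafish cells, 2.82-fold. Called lower were cry3b (-1.20), cry4 (-1.03) and, by a small amount, bmal1a (-0.25). per2 had a change of 0.06 (SE 0.10, adjusted p = 0.57), with overlapping arrays, and -0.20 when arrays were centred on the median. At 84 hpf, which is the same time of day as 60 hpf, the risen clock genes differed in where they stood. Mean levels at 60, 72 and 84 hpf were -0.22, 3.52 and -0.69 for per1b, -0.91, 1.39 and -0.72 for cry-dash, and -5.22, -3.43 and -5.15 for clocka. per3 was at -3.89, -1.62 and -5.20, below its 60 hpf level at 84 hpf, and nr1d1 at -5.71, 0.10 and -2.61, between its levels at the younger ages. nfil3-6 stood at -3.05, 0.11 and 0.24, with no return at 84 hpf. The opsins opn1mw1 and opn1sw2 were at 4.31 and 4.36 at 84 hpf, above their 72 hpf levels.

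**Figure D5:**
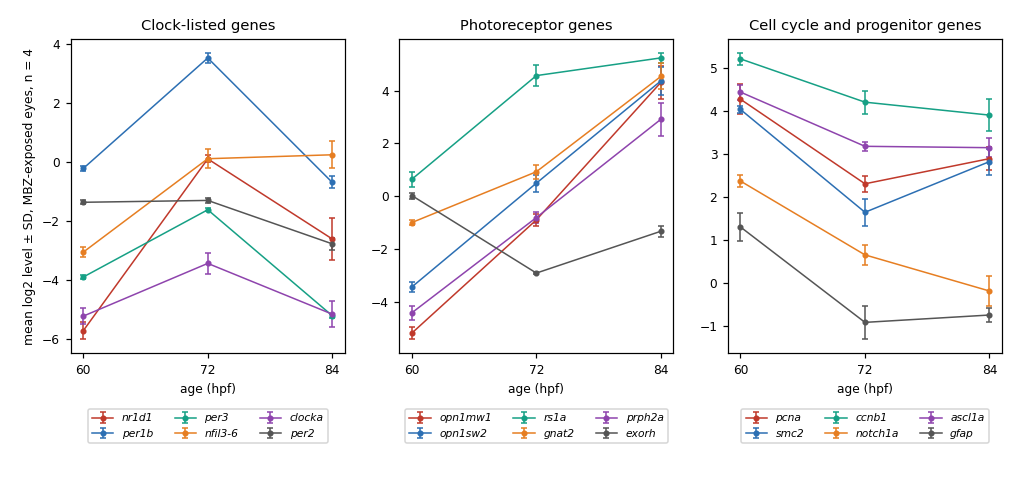
Mean log2 level and SD over 4 arrays in MBZ-exposed eyes at 60, 72 and 84 hpf, for clock-listed genes (left), photoreceptor genes (middle) and cell cycle and progenitor genes (right). per1b peaks at 3.52 at 72 hpf and is at -0.69 at 84 hpf, and opn1mw1 goes on to 4.31. pcna is at 2.89 at 84 hpf, above its 72 hpf level and below its 60 hpf level.

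Among immediate early genes, which respond to stimulation within minutes, 14 of 25 were called higher (56%) and 3 lower (12%). The shares of named genes were 37.8% and 33%. The list median was 0.35, against 0.19 over all probes, and 11 were higher and 5 lower when arrays were centred on the median. The phosphatase dusp2 had levels of 0.23, 0.66, 0.44 and 0.53 at 72 hpf, against -2.06, -2.33, -2.23 and -1.98 at 60 hpf, a 6.13-fold rise. junba rose 3.97-fold and jun 1.94-fold. fosab had a change of 0.29 (adjusted p = 0.063) at its brightest of 5 probes, and its probes ranged from -1.58 to 0.76. Of 21 genes of the integrated stress response, 6 were called higher (28.6%) and 8 lower (38.1%), against 37.8% and 33% of named genes.

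The 5 named genes with the smallest p in the difference between the compounds were cremb, atf3, rhbdd2, ilvbl and npas4a, and none passed the adjusted threshold. cremb, a cAMP-responsive transcription factor, had -1.13, -1.09, -1.22 and -1.73 at 72 hpf, against -3.07, -2.97, -3.10 and -3.57 at 60 hpf. Under MBZ it rose 3.70-fold (log2 1.89) and under BBC its change was 0.59, a difference of 1.29 with a 95% interval of 0.81 to 1.78 (adjusted p = 0.297). atf3, a stress-induced transcription factor, had 1.67, 1.46, 1.53 and 1.11 at 72 hpf, against 0.16, -0.30, 0.04 and -0.12 at 60 hpf, a change of 1.5 against 0.36 under BBC (difference 1.14, 95% interval 0.71 to 1.57, adjusted p = 0.297). For both genes the 72 hpf MBZ arrays stood above the 72 hpf BBC arrays.

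The neuronal activity gene npas4a had a change of 0.60 under MBZ, not called when arrays were centred on the median, and 1.49 under BBC, rhbdd2 -1.34 and -0.72, and ilvbl -0.31 and -0.73, with ilvbl's second probe at 0.31. The galectin gene lgals9l1 rose by 0.95 under MBZ, with 0.05 under BBC (difference 0.89, unadjusted p = 0.0021), and the crystallin crygn1 by 1.38, with 0.46 under BBC (difference 0.92, unadjusted p = 0.012). Both were singled out after their values were seen.

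Housekeeping lists depended on the scaling. Cytosolic ribosomal protein genes had 57 of 74 called higher and 3 lower with a median of 0.55, but 21 and 7 after quantile normalization and 14 and 11 in the authors' values. rpl9 and rps12 rose 2.15-fold and 2.05-fold, while rps27.2 (-2.15) and rpl31 (-0.95) were called lower. Oxidative phosphorylation genes had 45 of 75 higher and 9 lower, with a median of 0.37, and 26 and 16 when arrays were centred on the median. The cytochrome oxidase subunits cox5b2 and cox4i2 rose 4.30-fold and 3.98-fold and the complex I subunit ndufb6 2.22-fold, whereas the complex I subunit ndufv1 (-1.26) and the ATP synthase subunit atp5mc3a (-1.13) were called lower.

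Tubulin and stathmin genes had 8 of 27 called higher (29.6%) and 6 lower (22.2%), against 37.8% and 33% of named genes. Their median was -0.03, and 7 were higher and 10 lower after quantile normalization. The neuronal stathmin stmn4l, a regulator of microtubule growth, had 3.79, 3.81, 3.84 and 3.65 at 72 hpf, against 2.41, 2.04, 2.37 and 2.47 at 60 hpf, a 2.73-fold rise, and stmn4 rose 2.31-fold. The gamma tubulin tubg1, which nucleates microtubules at centrosomes, had 1.67, 1.49, 1.49 and 1.6 at 72 hpf, against 2.71, 2.95, 2.81 and 2.95 at 60 hpf, a change of -1.29 (adjusted p = 3.5e-10). The tubulin folding cofactor tbce (-1.26) and the beta tubulin tubb6 (-1.22) were also lower. No gene of the list was at an unadjusted p under 0.05 in the difference from BBC.

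Markers of tissue beside the retina were measured too. Skeletal muscle genes, which the muscles that move the eye also express, had 39 of 59 called higher and 5 lower, with a median of 1.15. The medians of the list on single arrays were -0.10, -0.11, -0.06 and -0.25 at 72 hpf, against -1.42, -0.65, -1.50 and -1.25 at 60 hpf, so that replicate 2 of 60 hpf stood above its group. The parvalbumin pvalb1 of fast muscle had 1.38, 2.06, 1.83 and 2.04 at 72 hpf, against -4.02, 2.07, -1.55 and -3.97 at 60 hpf, with replicate 2 of 60 hpf as high as the 72 hpf arrays. Its change was 3.69 (SE 1.13, adjusted p = 0.0062), and 5.01 without replicate 2, against 2.98 without replicate 1 and 2.99 without replicate 4. Without replicate 2 the list had again 39 higher and 5 lower, with a median of 1.36. The signed change was lower under MBZ than under BBC for 49 of 59 muscle genes. Their median difference was -0.38, against 0.015 over named genes at the brightest probe and -0.02 over all probes. The muscle list median was 1.15 under MBZ, or 1.36 without replicate 2 of 60 hpf, and 1.56 under BBC. Leaving out each MBZ array in turn gave list medians of 1.12 to 1.36, all below that under BBC. The gap between the list medians was thus smallest without replicate 2 of 60 hpf. In the difference 1 muscle gene was at an unadjusted p under 0.05, against 156 of 9738 named genes, and none was called. Other lists leaned too, none with a called gene. The signed change was lower under MBZ for 19 of 21 photoreceptor regulators (median difference -0.18) and 20 of 26 red blood cell genes (-0.10). So it was for 22 of 29 amacrine and horizontal cell genes, 25 of 34 clock genes and 52 of 74 ribosomal protein genes. Few were lower among crystallins (1 of 27, median difference 0.23) and other lens genes (2 of 28, 0.19). The same held for macrophage and microglia (5 of 27), S-phase (10 of 51), oxidative phosphorylation (15 of 75) and Müller glia genes (5 of 20). The shares beside these were 4422 of 9738 named genes at the brightest probe and 17548 of 31504 probes. No test of a list was made.

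The creatine kinase ckmb rose 4.19-fold and the myosin light chains myl1 and mylpfa 3.90-fold and 2.78-fold. Outside the list, the rule for named genes picked tnni1d (17.4-fold) and the myosin-binding protein gene mybpha (15.5-fold). tnni1d, a troponin subunit, had -1.53, -1.69, -1.25 and -1.89 at 72 hpf, against -6.02, -5.77, -5.73 and -5.32 at 60 hpf. The myogenic factors myf5 (-2.19) and myf6 (-1.37) and the actin gene acta1a (-0.88) were called lower. 

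Red blood cell genes had 5 of 26 called higher (19.2%) and 8 lower (30.8%), beside 37.8% and 33% of named genes. Their median was -0.17, against 8 higher and 5 lower under BBC with a median of 0.05. The globin hbba2 had levels of 0.96, 1.69, 1.27 and 1.64 at 72 hpf, against -5.97, -4.66, -6.27 and -8.64 at 60 hpf, where it was well above background on 3 of 4 arrays, a change of 7.77 (SE 0.60, adjusted p = 4.2e-10), or 7.02 without replicate 4 of 60 hpf. hbaa2 rose at least 1.97-fold, a call lost in the authors' values and with the normexp correction. The embryonic globin hbbe3 had 3.1, 2.74, 1.67 and 2.25 at 72 hpf, against 4.94, 5.12, 4.39 and 5.87 at 60 hpf, a change of -2.64, while hbbe2 rose 3.22-fold. The erythroid anion exchanger slc4a1a (-1.16) and the erythroid factor gata1a (-0.97) were lower. Globin genes are alike in sequence and may share signal.

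Macrophage and microglia genes had 11 of 27 called higher (40.7%) and 9 lower (33.3%), near the shares of named genes (37.8% and 33%), and 7 and 11 after quantile normalization. The perforin mpeg1.1 rose 2.13-fold, while lcp1 (-1.0) and the cathepsin ctss2.2 (-1.37) were lower. Of 5 neutrophil genes, 1 was called higher and 1 lower. Skin and surface epithelium genes had 9 of 29 higher (31%) and 7 lower (24.1%), against the same shares of named genes, and 7 and 10 when arrays were centred on the median. krt94 rose 2.97-fold and the membrane protease st14a changed by -2.70. Among hormone genes of pituitary and hypothalamus, 9 of 22 were higher (40.9%) and 5 lower (22.7%), against 37.8% and 33% of named genes. ghrh rose 7.70-fold and oxt 3.23-fold, and smtlb changed by -1.82. sim1a was well above background on 4 of 4 arrays at 72 hpf and on 1 of 4 at 60 hpf, so no fold is given. Of 10 hatching gland and liver genes, 4 were higher (40%) and 2 lower (20%), against the same shares of named genes. The hatching enzyme he1.1 had -0.75, 0.88, -3.95 and -1.02 at 72 hpf, against 2.27, 2.82, 1.11 and 2.59 at 60 hpf, a change of -3.41 (SE 0.85, adjusted p = 0.0012) that was -4.10 without replicate 2 and -2.49 without replicate 3 of 72 hpf. he1.2 had overlapping arrays with a change of -3.05, and -3.67 and -2.28 without the same arrays. In units of the 75th percentile, the summed signal of the tested muscle genes was 200 to 224 at 72 hpf, against 110 to 154 at 60 hpf. For red blood cell genes it was 291 to 411 at 72 hpf, against 336 to 429 at 60 hpf, and for macrophage and microglia genes 25.3 to 32.2 at 72 hpf, against 33.4 to 36.5 at 60 hpf. The skin list had sums of 801 to 974 at 72 hpf, against 588 to 784 at 60 hpf. Hormone genes summed to 26.3 to 29.7 at 72 hpf, against 17.3 to 23.0 at 60 hpf, and hatching gland and liver genes to 4.03 to 9.12 at 72 hpf, against 6.07 to 11.2 at 60 hpf. Their part in the retinal and lens changes was not tested.

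The rule for named genes also picked genes outside the lists. Among the 12 largest rises were fhl5 (14.0-fold), ifitm1 (13-fold) and the BMP antagonist grem1a (12.3-fold). grem1a had 1.43, 1.2, 1.8 and 1.55 at 72 hpf, against -2.41, -2.20, -1.94 and -1.95 at 60 hpf. The largest fall was in rb1, the retinoblastoma gene, a brake on S-phase entry, with -4.39, -4.93, -4.31 and -4.21 at 72 hpf, against -1.19, -0.91, -1.21 and -0.86 at 60 hpf, a change of -3.42 (SE 0.16, adjusted p = 2.8e-13). All 3 probes of rb1 fell, between -3.42 and -1.06.

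Successive enzymes of GDP-fucose synthesis fell together. gmds had -0.34, -1.0, -0.82 and -0.58 at 72 hpf, against 2.06, 2.16, 1.88 and 2.17 at 60 hpf, and gfus.2 had -1.45, -2.01, -1.68 and -1.91 at 72 hpf, against 1.17, 1.37, 1.35 and 1.32 at 60 hpf. Their changes were -2.75 and -3.07, and at 84 hpf the mean levels stood at 0.80 for gmds and 1.59 for gfus.2. Also among the 12 largest falls were wfikkn1, with protease inhibitor domains (-3.23), zgc:110540 (-3.05), the transglutaminase tgm1l4 (-2.84), il17rd, an inhibitor of FGF signalling (-2.74), and si:ch211-216l23.2 (-2.76), whose second probe had 0.18. All had adjusted p values of 1.4e-06 or less. The rule took only called genes with arrays that did not overlap between the ages. For the 12 largest rises and the 12 largest falls, also those described with the lists, neither property is thus a result.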

How the data were processed

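RNA from pooled eyes was measured on 24 arrays of 1 colour, with 4 arrays in each of 6 conditions, grouped by the compound and exposure time in the labels. The deposited scanner output, extracted by the authors with Agilent Feature Extraction (version 8.0 in the submitters' processing notes), gives intensities for each spot, background-corrected and not normalized between arrays. The authors also deposited log2 values, normalized with the package Agi4x44PreProcess. These served as an alternative.

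Spots of a probe were averaged, each log2 signal was scaled to the array's 75th percentile, and a probe was tested if, in at least 1 condition, its 4 arrays all passed the flags for positive and significant signal and for signal well above background. Spots flagged as uneven were left out. Of 43603 probes, 31504 were tested, 13942 with a gene name and 9738 names. Names came from RefSeq symbols through the accession of the array design, and the brightest probe stood for a gene. Provisional LOC symbols were left out only in picking the largest rises, the largest falls and the genes of the difference. All 24 arrays entered a single limma fit (limma 3.58.1 and version 1.17.8 of data.table in R 4.3.3), with 18 residual degrees of freedom and Benjamini-Hochberg adjustment over all tested probes. Lists are described by counts and medians, with no test of a list. The script was tested on simulated data. The number of arrays limits the precision.

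Named singly were the 12 largest rises and the 12 largest falls among genes called, with non-overlapping ages and well above background on all 8 MBZ arrays, the 5 with the smallest p in the difference from BBC, and members of the lists. The members and lists were chosen with earlier results of these data known. Results for 1 gene and a list built on it are not given. The rank product that the study used for its other comparison was not run. The median pixel signal replaced the mean pixel signal in the normexp alternative, with an offset of 50. Promoter motifs, sequences and positions were not analysed here. The alternatives were a 0.20 threshold, a minimum of 1.5-fold, other scalings and background corrections, other filters, slide and replicate blocks, fewer arrays in the fit, each array left out, the mean over probes, and, chosen after seeing the data, the brighter probes alone.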

Additional observations from a re-analysis of the deposited data

Results flagged for a closer look

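In 370 groups of 4 arrays (1 gene at 1 age), 17 had 1 array far from the other 3 by Dixon's criterion, where chance gives about 1 in 20. At 72 hpf the low arrays were replicate 1 for rs1a (3.99) and crygn1 (-0.48), replicate 3 for tyms (2.12), sox9b (-1.35) and smtlb (-5.21), and replicate 4 for gria2b (1.34). The high arrays at 72 hpf were replicate 1 for acta1a (-2.68) and replicate 4 for zgc:110540 (0.79). At 60 hpf replicate 2 was low for pvalb6 (-3.03) and rbpms2a (1.16) and high for mcm2 (6.51) and ckmb (1.63). Replicate 3 of 60 hpf was low for nr1d1 (-6.13) and high for per1b (-0.095), and replicate 4 was low for gnb3b (-1.88) and snap25b (2.58) and high for myf6 (-3.71). In each of these genes the arrays of the ages did not overlap, as for 68.4% of all probes tested. The rule that picked rs1a, nr1d1, per1b and zgc:110540 required this.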

How the results depend on the processing

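The count of probes called between the ages in MBZ-exposed eyes lay between 16928 and 25984 over the other thresholds, scalings and filters, against 22936, apart from 11881 among the 15750 brighter probes, where fewer probes were tested (11888 under BBC, against 23159). The share higher among the calls was 58.9%, against 45.2% when arrays were centred on the median and 48.5% in the authors' values (59.6%, 42.7% and 48.2% under BBC). Leaving out each array in turn gave 21896 to 22946 calls under MBZ and 22112 to 23235 under BBC. The difference between the compounds called 0 probes in every setting but the authors' values, where it called 3 (a probe each of fosab and ghrh and an unnamed probe), and 200 to 944 probes were at an unadjusted p under 0.05. With the replicate number as a block, 23332 probes were called under MBZ, 23521 under BBC and 0 in the difference. Same-numbered arrays of both MBZ ages deviated together at r = -0.0051, 0.027, 0.14 and 0.14, and 2 of the 4 numbers had their best match elsewhere, so the numbers were not taken to pair the ages. MBZ and BBC arrays of 72 hpf deviated together by number (r = 0.31, 0.16, 0.21 and 0.44, each its own best match), those of 60 hpf less so (0.088, 0.088, 0.025 and 0.13), and the difference between the compounds had 826 probes at an unadjusted p under 0.05 with the block, against 669 without it. The slide as a random block (correlation 0.13) gave 22265 calls. Of 177 named genes with a call, 165 kept it in every setting. The median of 14 gene lists moved by more than its spread between arrays in at least 1 of quantile normalization, the authors' values and the mean over probes. The direction turned for opn1mw3 when an array was left out (-1.08 to 0.40, the highest without replicate 4 of 60 hpf), pold3 over the mean of its probes (-0.43), and per2 with arrays centred on the median (-0.20), while hbaa2 had no change in the authors' values (0). The causes were not tested. The signal over background limits dim genes, calls below background on every array of 1 age are given as bounds, and genes above it on only some arrays are less certain.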
